A study of Mus musculus with 12 samples.

Results

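Matrix metalloproteinases (MMPs) and their tissue inhibitors (TIMPs) were examined as 10 genes of the 22243 in a table of transcript abundance: Mmp8, Mmp9, Mmp12, Mmp13, Mmp14, Mmp19, Mmp25, Timp1, Timp2 and Timp3. They were chosen by gene symbol, and the values of the principal transcripts of a gene were summed. MMPs are zinc-dependent endopeptidases that are made as inactive precursors, are activated by removal of a propeptide, and cleave collagens, other matrix proteins, cytokines and chemokines. TIMPs bind the active site of MMPs and block it, so proteolysis around a cell depends on both. Macrophages are a well known source of several MMPs and of TIMPs in inflamed tissue.

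RNA sequencing covered bone marrow-derived macrophages (BM-Mɸs) from 6 LysMCre/ErbB4-floxxed mice (ErbB4myeKO) and 6 ErbB4-floxxed littermates (ErbB4FF), 1 of each from 6 litters, on the strain background that the labels give as C57Bl/6. The age of these mice is not given in the sources used here. Both groups carry the floxed ErbB4 alleles, and ErbB4myeKO mice also carry Cre recombinase in the lysozyme 2 locus, which is active in macrophages but also in neutrophils and other myeloid cells. Marrow was grown in conditioned medium containing M-CSF, and every culture was activated toward "M1" with IFN-γ (100 U/mL for 16 h) followed by LPS (100 ng/mL for 6 h), so there is no resting culture to set the values against. Values are TPM, the share of a transcript among all transcripts of a library scaled to a fixed total, which are corrected for transcript length and can be compared between genes, but carry no read depth.

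Principal transcripts held from 59.0% to 74.7% of a library's TPM, with the most in litter 5 (71.4% and 74.7%). From 10214 to 12985 genes were above 0. Erbb4 lay between 0.280 and 0.852 TPM in all libraries, and was higher under the ErbB4myeKO label in 4 of 6 litters. Lyz2, the gene that carries Cre, was lower in the library labelled ErbB4myeKO in litters 1 to 5 and higher in litter 6, with 7997 TPM against 2964 TPM. Values are therefore named by the label, and the ratios of the members and of Mmp10 for genotype are also given without litter 6. All 8 macrophage markers reached a mean of 1 TPM over the libraries, the filter used throughout, among them Cd14, Adgre1, Cd68 and Csf1r, whereas 0 of 8 lymphocyte, 0 of 6 mast cell and basophil and 0 of 7 erythroid markers did. Of 8 dendritic cell and 8 osteoclast markers 2 and 5 passed, and of these only Xcr1, a chemokine receptor of dendritic cells, had an unadjusted p under 0.05 for genotype (log2 ratio 0.63, SE 0.23, adjusted p = 0.603 in limma). The sum of 4 Y-linked genes was between 36.1 and 49.2 TPM in both libraries of litters 1 to 4 and at most 0.406 TPM in both libraries of litters 5 and 6.

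The most abundant of the 10 genes, Mmp13, lies at one end of a cluster of 10 Mmp genes at chr9:7272514-7699585 of GRCm38. The 250 bases before the RefSeq start site (GRCm38.p6) were searched for the letters TGACTCA or TGAGTCA, which are each other's reverse complement and are the core that AP-1 transcription factors recognize, and for TATAAA on the gene's strand. Of 32851 mouse promoters of this length, 4.46% held the AP-1 letters, 7.59% held TATAAA and 0.481% held both. In the cluster 7 of 10 genes held the AP-1 letters, all between 35 and 93 bases before a start site, against 0 of the 12 MMP and TIMP genes elsewhere in the genome that have an entry. The members Mmp9 and Mmp19, and also Mmp2, Mmp16 and Mmp17, have no entry. A gene was counted if any of its promoters held the letters, whereas the shares over all are per promoter. The promoters of 4 cluster genes are shown because all hold the AP-1 letters while their levels differ widely. All are on the plus strand, at chr9:7272264-7272513 for Mmp13, chr9:7347124-7347373 for Mmp12 (the start of the transcript in the table), chr9:7445572-7445821 for Mmp3 and chr9:7502092-7502341 for Mmp10. Capitals mark the AP-1 letters and TATAAA.
Mmp13: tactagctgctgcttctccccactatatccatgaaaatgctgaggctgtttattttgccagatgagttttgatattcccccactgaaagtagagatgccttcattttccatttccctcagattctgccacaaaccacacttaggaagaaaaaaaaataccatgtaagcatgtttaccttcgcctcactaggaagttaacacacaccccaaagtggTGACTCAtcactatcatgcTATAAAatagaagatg
Mmp12: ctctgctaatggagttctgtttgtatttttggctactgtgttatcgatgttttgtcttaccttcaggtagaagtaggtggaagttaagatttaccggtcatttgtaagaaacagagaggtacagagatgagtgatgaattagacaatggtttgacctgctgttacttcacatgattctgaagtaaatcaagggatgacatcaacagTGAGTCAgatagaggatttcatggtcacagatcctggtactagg
Mmp3: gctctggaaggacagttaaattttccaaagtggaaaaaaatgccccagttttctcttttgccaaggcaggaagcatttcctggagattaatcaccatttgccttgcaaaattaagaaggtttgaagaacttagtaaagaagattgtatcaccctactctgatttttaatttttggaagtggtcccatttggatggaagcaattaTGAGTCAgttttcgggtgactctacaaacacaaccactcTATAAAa
Mmp10: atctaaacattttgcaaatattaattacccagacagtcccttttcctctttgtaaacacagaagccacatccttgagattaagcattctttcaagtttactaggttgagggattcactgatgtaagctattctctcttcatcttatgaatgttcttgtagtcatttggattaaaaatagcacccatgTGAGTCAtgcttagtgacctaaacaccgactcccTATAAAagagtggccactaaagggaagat

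Of these, Mmp13, Mmp3 and Mmp10 held both sets of letters and Mmp12 held the AP-1 letters alone. Mean levels over the 12 libraries were 3689 TPM for Mmp13, 0.0665 TPM for Mmp12, 5.58 TPM for Mmp3 and 2.06 TPM for Mmp10. Of the cluster genes not shown, Mmp1a, Mmp1b and Mmp7 also held both sets of letters. Their means were 6.81e-06, 0.0772 and 0.0227 TPM, so holding both did not go with a high level. A match of letters is a description of the sequence, and binding was not measured.

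**Figure D1:**
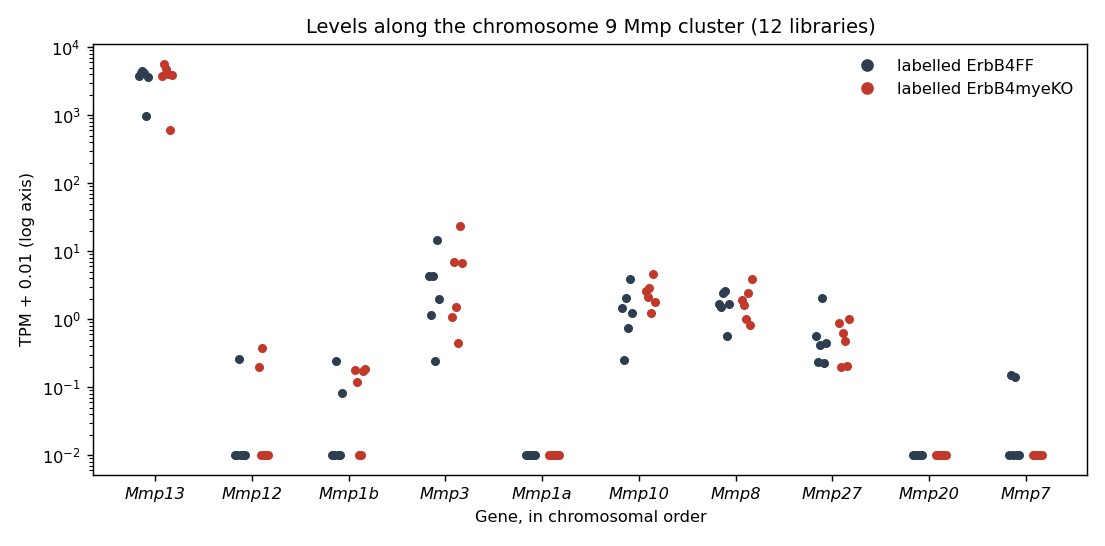
TPM + 0.01 (log axis) of the 10 genes of the chromosome 9 Mmp cluster in chromosomal order, with 1 point for each of 12 libraries. Mmp13 lies at or above 609 TPM in every library, and no other gene of the cluster exceeds 23.7 TPM.

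Mmp13 (ENSMUSG00000050578, chr9:7272514-7283331, plus strand), a collagenase that cleaves fibrillar collagen, ranked 21 of 22243 genes by mean TPM. Libraries labelled ErbB4myeKO had 3828, 5768, 4782, 4116, 609 and 3870 TPM in litters 1 to 6, and those labelled ErbB4FF had 3758, 4222, 4488, 4152, 971 and 3698 TPM. The groups overlapped, and both libraries of litter 5 lay far below the other 10. Mmp13 made up 99.7% of the mean TPM of its cluster, and between 60.8% and 94.0% of the TPM of all MMP genes in a library, the lowest share in the library of litter 5 labelled ErbB4myeKO. All of its 31-base words are found in no other transcript of GENCODE M21, so its value does not depend on how reads were split between transcripts. The shares count principal transcripts only. GENCODE M21 lists 1 transcript for Mmp13, but 7 for Mmp14, 7 for Mmp12 and 4 for Mmp9, of which 1 each was counted. TPM of their other transcripts is not in the values given here.

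Mmp12 (ENSMUSG00000049723, chr9:7344381-7369499, plus strand), the macrophage elastase, starts 61.05 kb past the end of Mmp13 and was listed at 0 in 9 of 12 libraries. The other 3 were 0.186 TPM (litter 1) and 0.363 TPM (litter 3) in libraries labelled ErbB4myeKO and 0.250 TPM (litter 3) in 1 labelled ErbB4FF. It was the only 1 of the 10 genes below the filter and was not tested. Mmp8 (ENSMUSG00000005800, chr9:7558456-7568485, plus strand), known as neutrophil collagenase, is in the same cluster and was low, between 0.820 and 3.84 TPM (median 1.74) in libraries labelled ErbB4myeKO and between 0.552 and 2.55 TPM (median 1.66) in those labelled ErbB4FF. Mmp9 (ENSMUSG00000017737, chr2:164940780-164955850, plus strand), gelatinase B, was also low, between 0.247 and 2.68 TPM (median 1.04) and between 0 and 1.60 TPM (median 0.818), and its mean of 1.01 TPM only just passed the filter. Both enzymes are stored by neutrophils. Of 12 neutrophil markers 5 passed the filter (Lcn2, S100a8, S100a9, Ngp and Camp), while Mpo, Elane, Prtn3, Ly6g and Cxcr2 were at a mean of 0.127 TPM or less and Retnlg was listed at 0 in all libraries. The summed level of the 12 markers ran from 139 to 1118 TPM in libraries labelled ErbB4myeKO and from 157 to 765 TPM in those labelled ErbB4FF, most of it on average Lcn2, which activated macrophages also make. Camp, a granule protein, had a log2 ratio of 0.45 (SE 0.18, adjusted p = 0.603 in limma), with an unadjusted p under 0.05. S100a8 had a ratio of 0.30, whereas Lcn2, S100a9 and Ngp had ratios of -0.20, -0.24 and -0.36, and the median of the 5 tested markers was -0.20. The part of these markers in the levels of Mmp8 and Mmp9 was not tested. In bulk RNA, fewer cells of a type and less RNA per cell cannot be told apart.

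Of the membrane-bound enzymes, Mmp14 (ENSMUSG00000000957, chr14:54431612-54445364, plus strand), a transmembrane collagenase that also activates the precursor of MMP2, was the steadiest of the 9 tested genes. It lay between 314 and 539 TPM (median 347) in libraries labelled ErbB4myeKO and between 268 and 628 TPM (median 416) in those labelled ErbB4FF, a 2.35-fold range over all 12. Mmp25 (ENSMUSG00000023903, chr17:23628311-23645277, minus strand), which is held in the membrane by a lipid anchor, ranged from 11.7 to 52.5 TPM (median 21.4) and from 15.2 to 74.0 TPM (median 37.0). Mmp19 (ENSMUSG00000025355, chr10:128790910-128800824, plus strand), a secreted enzyme that cleaves basement membrane proteins, ranged from 4.97 to 20.9 TPM (median 11.1) and from 5.03 to 35.4 TPM (median 14.9). Of the 31-base words of its transcript, 22.5% are shared with Tmem198b, which overlaps it on the other strand and was between 0.76 and 7.94 TPM, so the split of reads between these genes is uncertain.

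Timp1 (ENSMUSG00000001131, chrX:20870166-20874735, plus strand), a secreted inhibitor that binds the precursor of MMP9, was the most abundant of the TIMPs. It was 128, 70.6, 16.2, 66.3, 464 and 242 TPM in libraries labelled ErbB4myeKO of litters 1 to 6, and 147, 73.6, 14.9, 102, 289 and 149 TPM in those labelled ErbB4FF. The lowest and the highest library differed 31.1-fold, with litter 3 lowest and litter 5 highest in both groups. One of its 2 transcripts in the table held 97.1% of the mean level. Timp1 lies inside Syn1 on the other strand, which was at most 2.06 TPM. Timp2 (ENSMUSG00000017466, chr11:118301069-118355740, minus strand), which both inhibits MMPs and helps MMP14 to activate MMP2, was between 2.23 and 14.4 TPM and between 2.87 and 10.3 TPM in the groups, again with litter 3 lowest and litter 5 highest. Timp3 (ENSMUSG00000020044, chr10:86300372-86349506, plus strand), which binds to the matrix and also inhibits ADAM17, was between 1.48 and 23.4 TPM (median 10.4) and between 1.38 and 18.6 TPM (median 8.13). Of the words of its transcript, 36.4% are shared with Syn3, which lies on the other strand and was listed at 0. Timp4 reached 0.0211 TPM in 1 library and was listed at 0 in the others.

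By mean level the order was Mmp13, Mmp14, Timp1, Mmp25, Mmp19, Timp3, Timp2, Mmp8, Mmp9 and Mmp12. Mmp13 exceeded Mmp14, and Timp2 exceeded Mmp8, in 12 of 12 libraries. Neighbours that did not keep an order were Mmp19 and Timp3, with Mmp19 the higher in 7 of 12 libraries, and Timp3 and Timp2, with Timp3 the higher in 6 of 12. The other neighbours kept the order in 10 or 11 of 12 libraries. Of the 12 libraries, only both of litter 5 had more Timp1 than Mmp14. They had the highest Timp1 and also the lowest Mmp14 of their group, at 314 TPM (ErbB4myeKO label) and 268 TPM (ErbB4FF label).

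**Figure D2:**
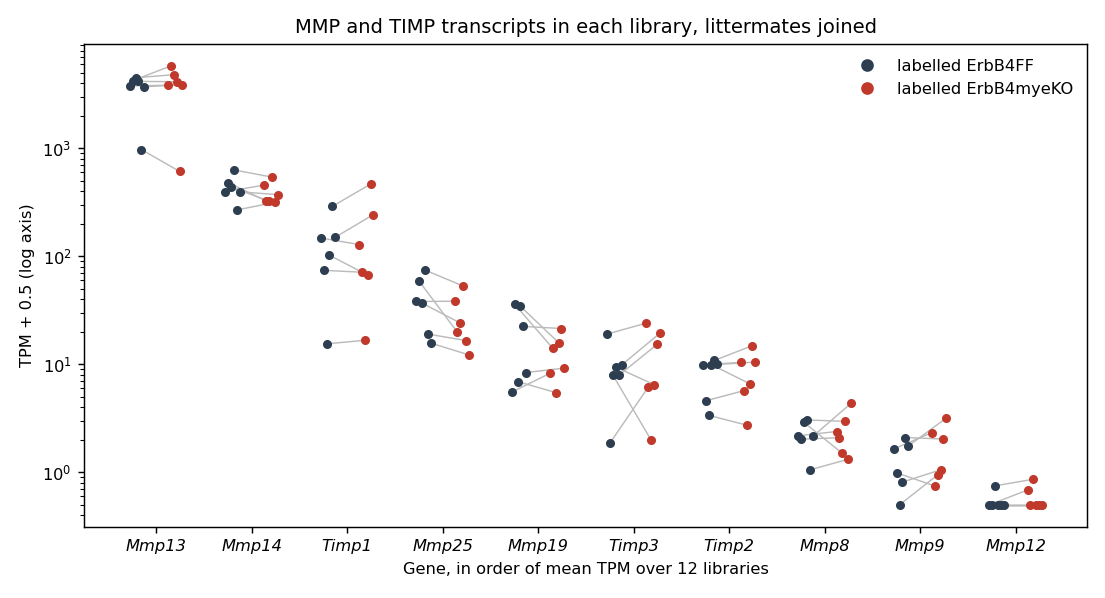
TPM + 0.5 (log axis) of the 10 genes in 12 libraries, with grey lines joining littermates. The genes run from Mmp13 (mean 3689 TPM) to Mmp12 (mean 0.0665 TPM), and the groups overlap for every gene.

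Whether genotype changed these genes was tested with limma on log2(TPM + 0.5), with litter as a block, for the 8780 genes that passed the filter. A log2 ratio on this scale understates the change of a low gene. None of the 9 tested members passed an adjusted p of 0.05 in limma, as was so for 0 of all 8780 genes (smallest adjusted p = 0.603). At an unadjusted p under 0.05, 1 member was lower and 0 were higher in libraries labelled ErbB4myeKO, beside 385 (4.38%) and 336 (3.83%) of all genes. The mean log2 ratio was above 0 for 5 members and below 0 for 4, with a median of 0.00, as over all genes tested. Without litter 6 it was above 0 for 1 and below 0 for 7 of the 8 members then tested, with a median of -0.06, beside -0.01 over all genes. For 0 of the 9 did the ratio have the same sign in all 6 litters, a pattern that 4.82% of all genes showed, and for 0 of the 9 were the groups free of overlap, as 0.0456% of all genes were.

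The member with an unadjusted p under 0.05 was Mmp25. In the order of the litters, it was 37.8, 19.3, 23.6, 52.5, 16.1 and 11.7 TPM in libraries labelled ErbB4myeKO and 37.6, 58.1, 36.3, 74.0, 18.5 and 15.2 TPM in those labelled ErbB4FF. It was lower in the library labelled ErbB4myeKO in 5 of 6 litters and level in litter 1. The mean log2 ratio was -0.54 (SE 0.19, 95% interval -0.98 to -0.09, adjusted p = 0.603 in limma, unadjusted 0.0239). An exact two-sided permutation test that swapped the labels of littermates in all 64 ways, and cannot give a p below 0.0312, gave p = 0.0625. The ratio was most negative in litter 2 (-1.57), and without that litter the mean was -0.33. Without litter 6 it was -0.57 (adjusted p = 0.767 in limma). Fcgr1, the high-affinity IgG receptor and the only macrophage marker with an unadjusted p under 0.05, was also lower, in 6 of 6 litters, with a log2 ratio of -0.86 (SE 0.25, adjusted p = 0.603 in limma). Its ratio was -2.20 in litter 2 and -0.70 in litter 6, where Lyz2 went against the labels. The median of the 8 macrophage markers was -0.05, and Cd14 (0.16), Mertk (0.14, higher in 6 of 6 litters), Csf1r (0.05) and Adgre1 (0.01) had ratios above 0, while Mrc1 (-0.47), Itgam (-0.20, lower in 5 of 6) and Cd68 (-0.12) had ratios below 0. The part of Fcgr1 in the result for Mmp25 was not tested.

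Mmp19 had a similar spread of ratios, from -1.36 in litter 2 and -1.12 in litter 4 to 0.58 in litter 1, with a mean of -0.36 (SE 0.26, 95% interval -0.96 to 0.24). The mean was -0.55 without litter 1, -0.16 without litter 2 and -0.21 without litter 4. Tmem198b, which shares sequence with Mmp19, was lower in 6 of 6 litters, with a log2 ratio of -0.53 (SE 0.15, adjusted p = 0.603 in limma), and its part in the ratio of Mmp19 was not tested. Mmp14 was lower in 4 of 6 litters, with a mean of -0.15 (SE 0.12, 95% interval -0.42 to 0.13), which was -0.06 without litter 2 and -0.09 without litter 3. For Mmp13 the mean was -0.01 (SE 0.13, 95% interval -0.31 to 0.29). Its ratio was between -0.01 and 0.45 in litters other than litter 5, where it was -0.67, and the mean without that litter was 0.12. Mmp9 had the largest positive mean of the members, 0.37 (SE 0.25, 95% interval -0.21 to 0.95), and was higher in 4 of 6 litters. Mmp9 passed the filter of 1 TPM only through libraries labelled ErbB4myeKO (mean 1.22 TPM, against 0.799 TPM in those labelled ErbB4FF). Its ratio is therefore not independent of the filter. As its levels are near the pseudocount, the mean was 0.66 with a pseudocount of 0.1. Mmp8 was higher in 4 of 6 litters, with a mean of 0.09 (SE 0.25), which was -0.10 without litter 6. Without litter 6 the means were -0.02 for Mmp13, -0.16 for Mmp14 and -0.46 for Mmp19, and Mmp9 was below the filter.

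Of the inhibitors, Timp2 had a mean log2 ratio of 0.00 (SE 0.15, 95% interval -0.35 to 0.35) and Timp1 of 0.10 (SE 0.18, 95% interval -0.31 to 0.52). Timp1 was higher in the library labelled ErbB4myeKO in 3 litters, by 0.68 in litter 5 and 0.70 in litter 6, and lower in 3, by up to -0.61 in litter 4. Without litter 6 the means were -0.02 for Timp1, -0.01 for Timp2 and 0.09 for Timp3. Timp3 was the most variable, with ratios from -1.99 in litter 3 to 1.71 in litter 2. Its mean was 0.24 (SE 0.45, 95% interval -0.80 to 1.28), -0.05 without litter 2 and 0.69 without litter 3. These intervals are wide, so a missed threshold does not show that the groups were alike.

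**Figure D3:**
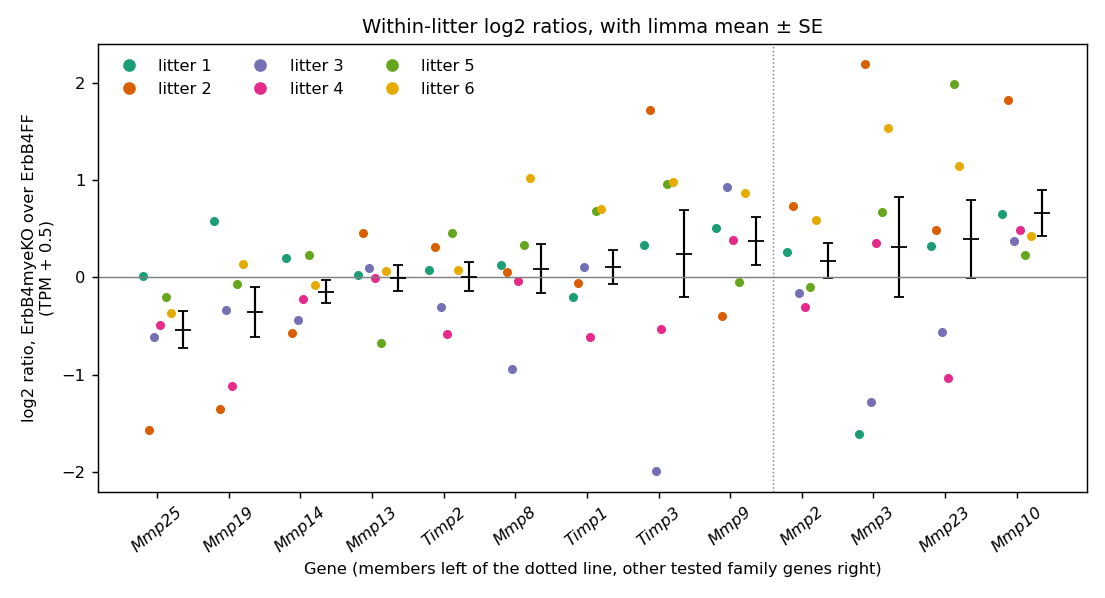
Log2 ratio of TPM + 0.5, ErbB4myeKO over ErbB4FF, in each of 6 litters (colored points) and the limma mean with its SE (black), for the 9 tested members and 4 other tested family genes. Mmp25 lies at or below 0 in 5 litters and at 0.01 in litter 1, Mmp10 lies above 0 in 6 of 6, and Timp3 spans -1.99 to 1.71.

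Timp3 varied within litters much as some stromal markers did, a pattern noticed after their values were seen. Among them were Col1a1 and Col1a2, the chains of type I collagen, at between 1.09 and 46.5 TPM. In litters 1 to 6 the log2 ratio was 0.33, 1.71, -1.99, -0.53, 0.95 and 0.97 for Timp3, 0.26, 1.52, -2.02, -1.02, 1.18 and 0.94 for Col1a1, and -0.01, 1.40, -2.12, -0.80, 0.96 and 0.97 for Col1a2. The 3 genes were high or low in the same pairs, and the sign of the ratio was the same as that of Timp3 in all litters for Col1a1 and in 5 of 6 for Col1a2. Of the other 4 tested stromal markers, Cxcl12, a chemokine of stromal cells, had ratios of 0.12, 0.50, -0.85, -1.01, 1.21 and 1.05, with the sign of Timp3 in 6 of 6 litters. Col3a1, the chain of type III collagen, had ratios of -0.45, 1.05, -1.39, -1.49, 1.38 and 1.08, with the sign of Timp3 in 5 of 6. Dcn (decorin) and Pdgfrb had other patterns, with ratios in litter 3 of 1.10 and -0.09 and in litter 6 of -0.06 and -0.02. Of 10 stromal markers 6 passed the filter and 0 had an unadjusted p under 0.05 in limma. Their sum was between 9.28 and 107 TPM in libraries labelled ErbB4myeKO and between 16.1 and 101 TPM in those labelled ErbB4FF, and Pdgfra, Thy1, Lum and Postn were at a mean of 0.719 TPM or less. The part of stromal transcripts in the level of Timp3 was not tested.

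**Figure D4:**
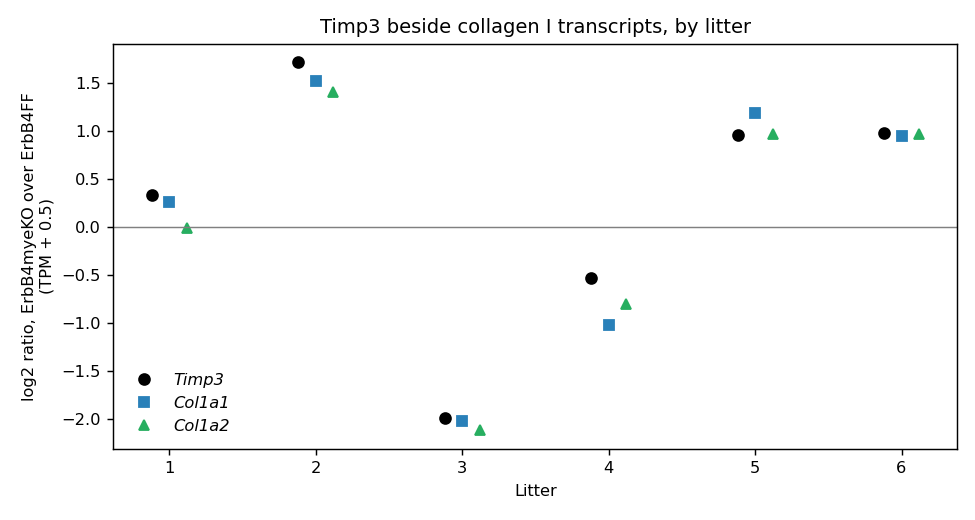
Log2 ratio of TPM + 0.5, ErbB4myeKO over ErbB4FF, by litter for Timp3, Col1a1 and Col1a2. The 3 genes lie together in each litter, near 1 in litters 5 and 6 and near -2 in litter 3.

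Members also differed between litters. In the same limma fit, with a test over the litter terms that was added after the data were seen, 6 of 9 members passed an adjusted p of 0.05, beside 44.9% of all genes. They were Timp1 (adjusted p = 0.000633), Mmp13 (0.000912), Timp2 (0.0043), Mmp25 (0.0101), Mmp19 (0.018) and Mmp9 (0.0328). For Timp1 the mean of the pair ranged over 4.51 on the log2 scale between litters, while the mean size of the difference within a pair was 0.39. For Mmp13 these were 2.68 and 0.22. Litter 5 carried much of this: without it, 11.5% of all genes and 3 of 8 members passed (Timp1, Timp2 and Mmp25), and Mmp13 did not (adjusted p = 0.202 in limma). Mmp9 was then below the filter. Timp1, an X-linked gene, was highest in litters 5 and 6, in which the Y-linked sum was near 0, and litter, sex and batch (1 letter per litter on the labels) cannot be told apart.

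The level of Mmp13 relative to the summed TIMPs followed these differences. It was 23.8, 70.8, 241, 52.5, 1.23 and 14.3 in libraries labelled ErbB4myeKO of litters 1 to 6, and 21.5, 53.4, 178, 34.6, 3.17 and 22.0 in those labelled ErbB4FF. In litters 1 to 4 the library labelled ErbB4myeKO had the higher ratio, by a log2 of 0.15 to 0.60, and in litters 5 and 6 the lower, by -1.36 and -0.62. Lyz2 went against the labels in litter 6, and without that litter the ratio was lower in litter 5 alone. All of these are ratios of transcripts and not of active protein.

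**Figure D5:**
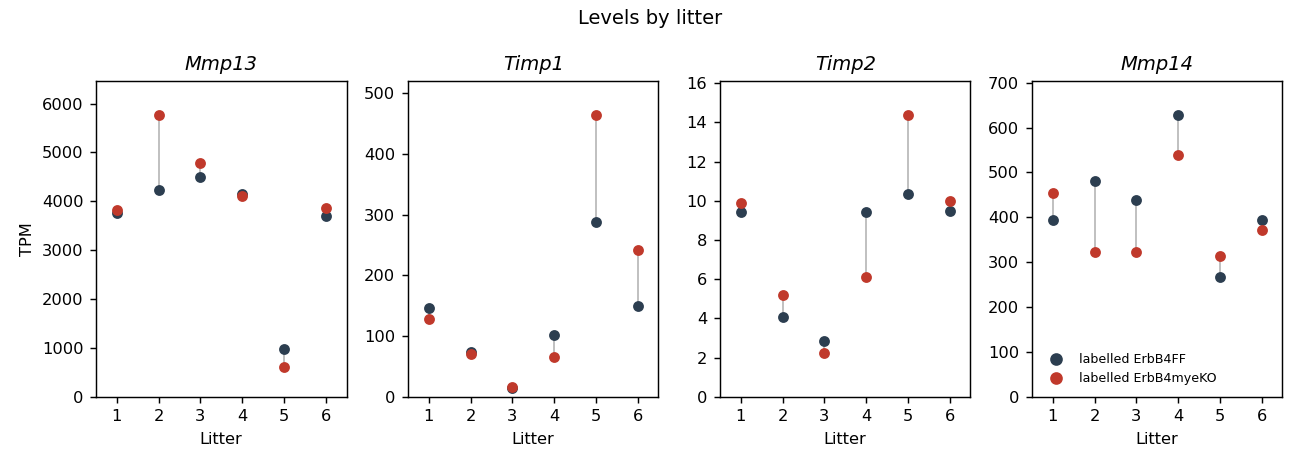
TPM (linear axes from 0) of Mmp13, Timp1, Timp2 and Mmp14 in each litter, with a grey line between littermates. In litter 5 both libraries have the lowest Mmp13 (609 and 971 TPM) and the highest Timp1 (464 and 289 TPM).

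The other 17 genes of the family were mostly low: 4 passed the filter, and 3 were listed at 0 in all libraries (Mmp20, Mmp21 and Mmp28). Of the 4, 1 had an unadjusted p under 0.05, Mmp10 (stromelysin 2), a secreted enzyme whose substrates include other MMP precursors, beside 3.83% of all genes that were higher at this threshold. It was 2.60, 2.10, 2.82, 1.23, 4.58 and 1.81 TPM in libraries labelled ErbB4myeKO of litters 1 to 6 and 1.47, 0.239, 2.07, 0.743, 3.85 and 1.23 TPM in those labelled ErbB4FF. The library labelled ErbB4myeKO was the higher in 6 of 6 litters, beside 4.82% of all genes with 1 direction in all litters, although the groups overlapped. The mean log2 ratio was 0.66 (SE 0.23, adjusted p = 0.603 in limma, unadjusted 0.0235), and the exact permutation p was 0.0312, the smallest the swaps can give. As for Mmp9, levels were near the pseudocount: the mean was 0.89 with a pseudocount of 0.1 and 0.51 with 1. With no replicate block the unadjusted p in limma was 0.123. Without litter 2, where the ratio was 1.82, the mean was 0.43. Without litter 6 it was 0.71, higher in 5 of 5 litters, with an exact permutation p of 0.0625, the smallest that 5 litters can give. Mmp3 (stromelysin 1), Mmp2 (gelatinase A) and Mmp23 had log2 ratios of 0.31 (SE 0.51), 0.17 (SE 0.18) and 0.39 (SE 0.40), none past an unadjusted p of 0.05.

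Genes that act with MMPs were read as lists, and 0 genes of any list passed an adjusted p of 0.05 in limma. The counts at an unadjusted p under 0.05 stand beside 3.83% of all genes higher and 4.38% lower. Of 8 genes of plasminogen activation, the protease cascade that activates several MMP precursors, 7 were tested and 0 had an unadjusted p under 0.05 (median log2 ratio -0.03). Among the more abundant was Plaur (183 TPM), the urokinase receptor. Of 13 ADAM and ADAMTS genes, the related membrane-bound and secreted metalloproteinases, 8 were tested and 1 was higher at an unadjusted p under 0.05 (median -0.10). This was Adam17, the TNF-converting enzyme that TIMP3 inhibits, with a mean of 108 TPM, a log2 ratio of 0.16 (SE 0.06, adjusted p = 0.603 in limma) and higher levels in 5 of 6 litters. Of 13 genes for the processing, docking and clearance of MMPs, 8 were tested and 1 was higher (median -0.02). This was Itgav, the integrin αV chain, with a log2 ratio of 0.30 (SE 0.11, adjusted p = 0.603 in limma), also in 5 of 6 litters. The most abundant were Lcn2 (373 TPM), whose product binds MMP9, and Furin (111 TPM), the convertase that activates MMP14 and MMP25. Of 15 matrix substrates, 11 were tested and 0 had an unadjusted p under 0.05 (median 0.09), led by Sdc4 (805 TPM) and Spp1 (310 TPM). Over all 8780 genes the median was -0.00068.

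For each tested member, the gene outside the list with the most similar pattern was sought by Pearson's r over the 12 libraries after the mean of each litter was taken away, which leaves 6 independent differences. These genes were Ass1 for Mmp8 (r = 0.984), Agk for Mmp9 (0.947), Bcat2 for Mmp13 (0.964), Sh3bp2 for Mmp14 (0.984), Zfp935 for Mmp19 (0.983), Ube2e3 for Mmp25 (0.990), Hace1 for Timp1 (0.978), P3h3 for Timp2 (0.975) and Sdc2 for Timp3 (0.986). Each is the highest of the values for all other tested genes and is a description without a test. With litter differences kept, r stayed above 0.9 only for P3h3 with Timp2 (0.976) and Sdc2 with Timp3 (0.910). It was 0.85 for Agk, 0.46 for Ass1 and 0.18 for Sh3bp2 with their members. Below 0 were Zfp935 (-0.25), Ube2e3 (-0.25), Bcat2 (-0.39) and Hace1 (-0.85).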

How the data were processed

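The authors used kallisto to pseudoalign single-end reads and deposited the resulting TPM for APPRIS principal transcripts; the release and the strand setting are not given in the sources used here, and the submitters' processing notes name mm10. The deposited sleuth columns of the authors' own test (p-values, q-values, ratios) were not used. Repeated lines (405 of 29213) were dropped and TPM were summed per gene. For 8780 genes whose mean reached 1 TPM, log2(TPM + 0.5) was fitted with limma 3.58.1 in R 4.3.3 (eBayes with trend, litter as a block, Benjamini-Hochberg adjustment over all genes). Single genes were tested by exact permutation over 64 swaps. Sex, which the labels do not give, was no covariate. TPM carry no depth, so precision rests on the spread between litters.

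Litters come from the replicate numbers of the labels, whose batch letter is shared by the 2 libraries of a litter and differs between litters. Littermates correlated at r = 0.273 to 0.774 after group means were taken away. Among the libraries labelled ErbB4FF, that of the same litter matched each library labelled ErbB4myeKO best, in 6 of 6. A shared batch or sex could also give such a match. In simulated data for the genotype effect over 8780 genes, with independent noise and 200 changed genes, 76% of genes changed by a log2 of 1 were recovered. Of 183 calls, 11 were false. This share is pooled over genes with different spreads. It does not give the power for a single member, such as Timp3 (SE 0.45), in the real data. Shared sequence was measured as 31-base words in GENCODE M21 (GRCm38), promoters are from RefSeq, and Python 3.11.15 was used.

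The members, lists and promoters shown were chosen with earlier results of these data known. Named genes are the members, the other tested MMP and TIMP genes, listed genes with an unadjusted p under 0.05 or among the 2 highest of a list, the most similar gene of each member, Erbb4 and Lyz2. A result that this rule selects is not reported here. Others were chosen after their values were seen: the collagens, the overlapping genes, the other marker genes and the untested family genes. Alternatives were no block, a Y-linked covariate, pseudocounts of 0.1 and 1, no filter, a filter at 5 TPM, median-ratio scaling, no trend, the highest transcript alone and each litter left out.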

Additional observations from a re-analysis of the deposited data

Results flagged for a closer look

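In both groups, the library of litter 5 stood apart for Mmp13, at 609 TPM among the 6 libraries labelled ErbB4myeKO and at 971 TPM among the 6 labelled ErbB4FF: the gap to the nearest other library was 0.818 and 0.873 of the whole range on the log2 scale, above Dixon's 95% critical value for 6 samples. Mmp12 was 0.250 TPM in the library of litter 3 labelled ErbB4FF and 0 in the other 5 of that group, which by itself gives a gap of 1 of the range. These are 3 flags among 20 groups of 6 examined (10 genes in each of 2 groups), and chance flags about 1 in 20. Both libraries of litter 5 are also the highest for Timp1 and Timp2. They differed beyond these genes. Principal transcripts held 71.4% (ErbB4myeKO label) and 74.7% (ErbB4FF label) of their TPM, the largest shares. Their summed macrophage markers were the lowest, at 2606 and 2712 TPM, with 4218 TPM in the next library. The cause was not tested.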

How the results depend on the processing

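No member passed an adjusted p of 0.05 in the alternatives that could be fitted for it (lowest 0.499 in limma): all 15 for 7 members, 14 for Mmp8 (not at 5 TPM) and 10 for Mmp9 (not at 5 TPM, after rescaling or without litters 1, 5 or 6, where it was below the filter). Over all genes, the count that passed was 0 to 1 with a litter left out (1 without litter 3) and 0 elsewhere, and the count at an unadjusted p under 0.05 was 721, 413 to 864 with a litter left out, and 75 with no replicate block. The count of members at an unadjusted p under 0.05 was 1, 0 to 1 with a litter left out (0 without litter 3) and 0 without the block. The count of members with the same sign in every litter was 0, 1 after rescaling by median ratios and 0 to 1 with a litter left out; the member was Mmp25, whose ratio in litter 1 is 0.01. Litter effects passed for 1002 to 4092 genes and for 3 to 7 members with a litter left out, lowest without litter 5. Of 129 member ratios under the alternatives, 116 kept their sign and 13 in 5 members reversed, all with a main ratio near 0 or a wide error. With the Y-linked covariate and the block, Mmp8 was -0.06 and Mmp13 0.01. Timp2 was -0.0013 with a pseudocount of 0.1 and -0.01 after rescaling. With litters left out, ratios ran from -0.10 to 0.30 for Mmp8, -0.10 to 0.12 for Mmp13, -0.22 to -0.06 for Mmp14, -0.55 to -0.16 for Mmp19, -0.02 to 0.25 for Timp1, -0.09 to 0.12 for Timp2 and -0.05 to 0.69 for Timp3. The cause of these changes was not tested.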
